A study of Mus musculus with 12 samples.

Results

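A set of 10 genes of reelin signalling, chemokine signalling and the cytoskeletal machinery of neuronal migration was followed in serotonin neurons and their neighbours in the hindbrain of mouse embryos. The genes were chosen by name: the secreted protein reelin (Reln), its receptors Vldlr and Lrp8 and their adaptor Dab1, the chemokine Cxcl12 and its receptor Cxcr4, the kinase Cdk5 and its activator Cdk5r1, the dynein regulator Pafah1b1 (Lis1) and the adhesion protein Astn1. All 10 genes of 18193 with a symbol of their own on the array were present, with 33 of 45101 probe sets. Of these, 23 exceeded a signal of 107 (the median over the whole data set) on 3 or more arrays and were tested, and each gene kept at least 1. The 10 left out had signals of 2 to 214.

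Cells of 4 populations were sorted from ePet-EYFP embryos at E12.5 (200000 cells per array, 3 arrays each on the Affymetrix Mouse 430 2.0 platform). R+ and C+ were the YFP-positive cells of the rostral and the caudal domain of the neural tube, cut apart at the pontine flexure, and R- and C- were the YFP-negative cells of the same domains. The transgene expresses yellow fluorescent protein from a Pet-1 enhancer, so that YFP stands for serotonergic identity, and all 4 populations came from embryos that carry it. The YFP-negative cells are a mixture of progenitors, other neurons, blood and vessel cells. In such pooled RNA, fewer cells of a type and less RNA per cell cannot be told apart.

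Reelin is a large extracellular protein that neurons secrete into the tissue around them. It binds Vldlr and Lrp8 on migrating neurons, whose Src-family kinases then phosphorylate Dab1, and in the brainstem as in the cortex the pathway sets where neurons settle. Cxcl12 attracts cells that carry Cxcr4, while a further receptor, Ackr3, takes the ligand up. Cdk5 with its neuronal activator Cdk5r1, and Pafah1b1 with cytoplasmic dynein, move the nucleus and reshape the cytoskeleton of the migrating cell. Serotonin neurons are born near the ventral midline of the hindbrain, in a rostral and a caudal group, and migrate from there to form the raphe nuclei.

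The start regions of the 3 genes that differed between populations are shown because these are the members whose levels the comparisons turn on. Windows of 300 bases, 250 before and 50 after the annotated start, were taken from RefSeq on GRCm38.p6, and 8 of the 10 genes matched. Capitals mark matches, on either strand, to GGGCGG, a GC box bound by Sp-family factors. TAATTA, a homeodomain core that reads the same on both strands, and AGATAA, the core read by GATA factors, were searched on both strands too and had no match in these windows. Reln (chr5:22344656-22344955, minus strand), Cxcr4 (chr1:128592250-128592549, minus strand) and the distal (chr4:103619250-103619549) and proximal (chr4:104367288-104367587) starts of Dab1 (plus strand) are given 5′ to 3′.
Reln: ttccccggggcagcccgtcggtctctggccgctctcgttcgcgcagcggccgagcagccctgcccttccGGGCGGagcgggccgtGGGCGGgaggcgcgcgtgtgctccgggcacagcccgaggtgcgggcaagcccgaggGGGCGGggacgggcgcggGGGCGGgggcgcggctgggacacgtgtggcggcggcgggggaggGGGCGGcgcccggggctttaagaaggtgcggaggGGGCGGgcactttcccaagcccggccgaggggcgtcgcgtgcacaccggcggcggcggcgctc
Cxcr4: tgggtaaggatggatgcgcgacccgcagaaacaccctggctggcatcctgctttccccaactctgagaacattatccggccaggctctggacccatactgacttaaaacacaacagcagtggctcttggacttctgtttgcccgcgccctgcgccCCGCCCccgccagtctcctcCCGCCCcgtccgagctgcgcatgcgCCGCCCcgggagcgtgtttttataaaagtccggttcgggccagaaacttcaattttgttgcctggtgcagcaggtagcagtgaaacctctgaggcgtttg
Dab1 distal: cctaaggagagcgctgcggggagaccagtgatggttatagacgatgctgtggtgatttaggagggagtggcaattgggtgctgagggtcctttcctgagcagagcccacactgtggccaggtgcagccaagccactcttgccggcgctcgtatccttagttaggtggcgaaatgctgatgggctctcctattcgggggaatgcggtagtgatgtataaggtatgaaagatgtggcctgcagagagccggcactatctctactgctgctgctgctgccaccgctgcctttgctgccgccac
Dab1 proximal: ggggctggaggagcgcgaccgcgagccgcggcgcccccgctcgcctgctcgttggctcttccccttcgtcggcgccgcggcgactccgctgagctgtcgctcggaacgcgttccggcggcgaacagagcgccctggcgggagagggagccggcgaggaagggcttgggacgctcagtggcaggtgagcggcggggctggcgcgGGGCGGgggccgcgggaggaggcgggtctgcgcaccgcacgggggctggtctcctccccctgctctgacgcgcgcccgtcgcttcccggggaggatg
The Reln window was 80.7% G or C with 47 CpG dinucleotides and the proximal Dab1 window 77.3% with 46. The Cxcr4 window was 59.3% with 20 and the distal Dab1 window 57.3% with 12, and the median over 32851 windows of all genes was 52.7%. It held 6 GC boxes, the Cxcr4 window 3 and the proximal Dab1 window 1, and the distal Dab1 window held none. Of all windows 35.7% held a GC box, 5.29% the homeodomain core and 11.2% the GATA core. These are matches of letters, not sites shown to be bound.

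Array-wide measures bear on the comparisons as follows. The median signal was 93 to 121 over the 12 arrays. For beta-actin the signal at the 3' end over that at the 5' end, a ratio that is raised in degraded RNA, was 2.64 to 4.39 on the 6 rostral arrays and 4.52 to 7.69 on the 6 caudal arrays. The same ratio for Gapdh was 1.15 to 2.14 rostrally and 1.54 to 4.63 caudally, with overlap. As the beta-actin ratio separated the domains, RNA quality and domain cannot be told apart in comparisons between domains. The arrays numbered replicate 1 deviated together from their groups (correlations of 0.334 to 0.52). Those of replicates 2 and 3 did so less (0.118 to 0.221 and 0.139 to 0.241). Serotonin neuron markers carried the labels: their summed signal was 78710 to 86045 in R+ and 4782 to 5165 in R-, and 53873 to 58401 in C+ and 2265 to 3368 in C-, with all 9 measured markers higher in both sorts. Progenitor and cycling markers summed to 19132 to 21725 in R+ and 49818 to 58504 in R-, and to 19741 to 26520 in C+ and 50762 to 51113 in C-. Of 10 measured, 10 were lower in R+ than in R- and 9 were lower in C+ than in C-. Markers were lower in R+ than in R- for 5 of 5 glutamate and GABA neuron genes, 4 of 4 red blood cell genes, 4 of 8 mesenchyme, meninges and pericyte genes, 2 of 6 dopamine and noradrenaline genes, 1 of 2 motor neuron genes and 0 of 6 endothelial genes. In C+ against C- the same lists had 4, 4, 5, 2, 1 and 2 lower, and 1 mesenchyme gene, Dcn, was higher. Of 5 macrophage genes 1 was higher in R+ and 1 lower in C+, and of 8 general neuron genes 2 were higher and 1 lower in each sort. Their part in the results below was not tested.

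In all, 8 differences of the migration genes passed the test (limma, adjusted p under 0.05 over 12845 genes) and 42 did not. In R+ against R- none of the 10 genes was higher and Dab1 was lower, where 4.34% of all genes were higher and 7.86% lower. In C+ against C- Reln and Cxcr4 were higher and none was lower, where 5.71% of all genes were higher and 7.39% lower. In R+ against C+ Reln and Dab1 were lower and none was higher, where 2.83% were higher and 4.48% lower. In R- against C- Cxcr4 was higher and Reln lower, where 1.05% were higher and 1.78% lower. The YFP-positive minus YFP-negative difference was itself lower rostrally than caudally for Dab1 only (0.490% of all genes higher, 0.677% lower). The median difference of the 10 genes was 0.14, 0.29, -0.12, -0.08 and -0.13 in these 5 comparisons, beside -0.01, -0.04, -0.05, -0.04 and -0.01 over all genes. Groups did not overlap for 3, 6, 4 and 2 of the 10 genes in the first 4 comparisons, where 28.4%, 27.3%, 26.0% and 19.2% of all genes did not. With the replicate number as a block, 4, 6, 4, 2 and 3 of the 10 genes passed in the 5 comparisons, while the share of all genes that passed was also larger, at 20.9%, 22.8%, 21.8%, 10.2% and 2.65%.

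**Figure D1:**
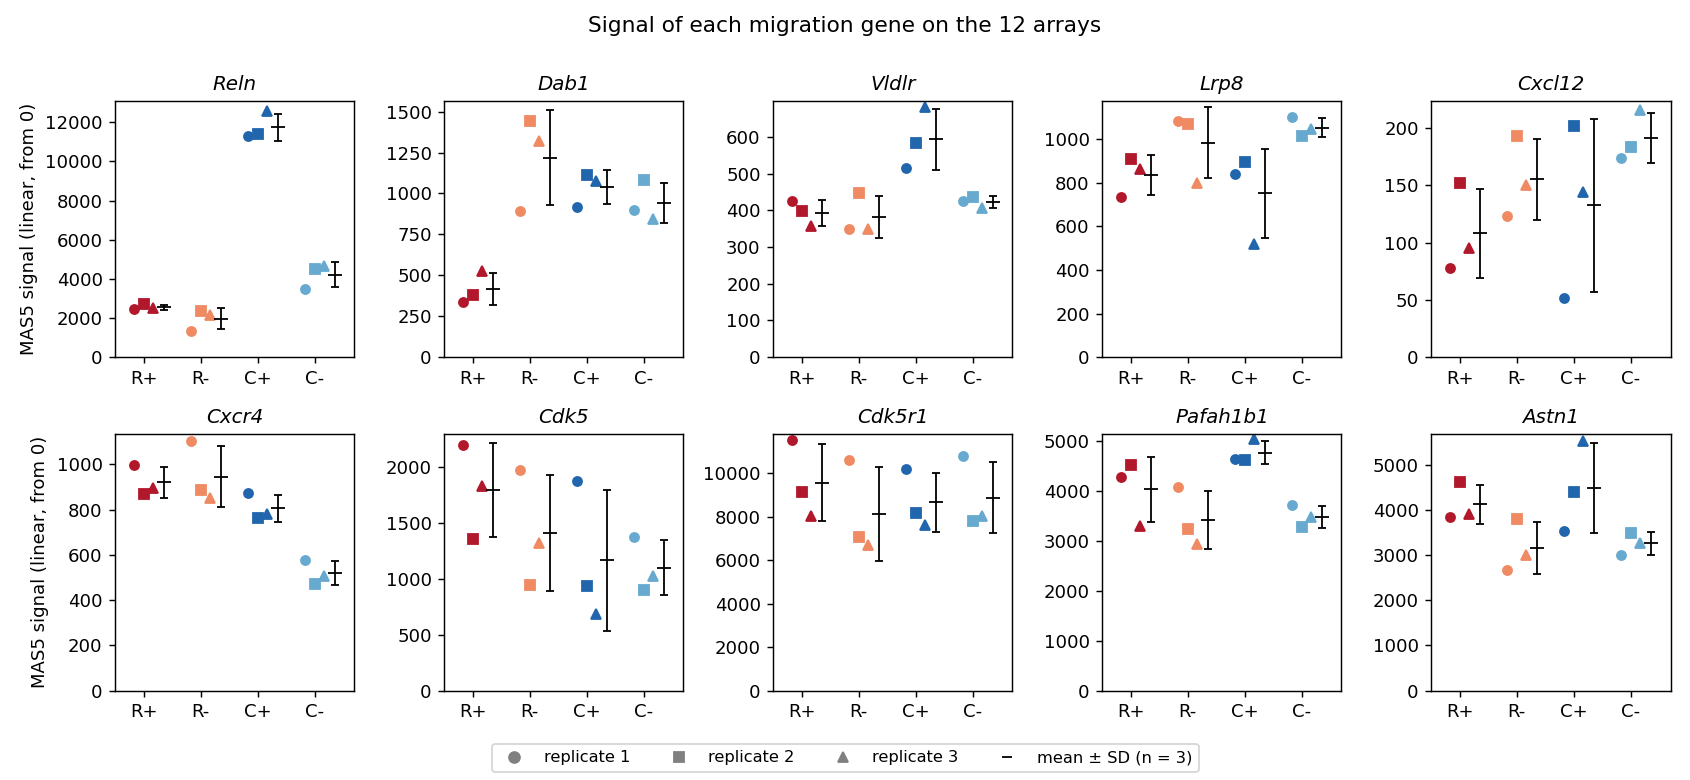
MAS5 signal (linear axis from 0) of the probe set used for each of the 10 genes on the 12 arrays, in R+, R-, C+ and C-, with the mean ± SD of 3 arrays beside the points. Reln reaches 11285 to 12551 in C+, above every other array, and Dab1 is lowest in R+ at 338 to 525.

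Reln was highest in caudal serotonin neurons and lower in both rostral populations. Its signal was 11285, 11381 and 12551 in C+ and 3487, 4529 and 4650 in C-. In the rostral domain it was 2445, 2697 and 2509 in R+ and 1356, 2376 and 2143 in R-. The order was C+, C-, R+ and R-, and no neighbours in it overlapped. Caudal serotonin neurons exceeded their neighbours 2.80-fold (95% interval 2.14 to 3.66, log2 difference 1.48 ± 0.18 SE, adjusted p = 4.11e-05). Rostral serotonin neurons lay 2.20 ± 0.18 on the log2 scale below caudal ones (difference -2.20, adjusted p = 1.93e-06, 0.218-fold, 95% interval 0.167 to 0.285). Reln was also lower in R- than in C- (-1.13 ± 0.18, adjusted p = 0.00217). Neither of the first pair of calls was lost under any alternative tried. The last one was lost with the beta-actin ratio as a covariate (-0.81, adjusted p = 0.0723) and without the 4 arrays of replicate 2 or of replicate 3 (adjusted p = 0.0535 and 0.122).

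Within the rostral domain Reln was 0.42 ± 0.18 higher in R+ than in R-, which did not pass (adjusted p = 0.175; 0.0304 with the replicate block). Without the R- array of replicate 1, the lowest of all at 1356, it was 0.18 (adjusted p = 0.526), and without all replicate 1 arrays 0.20 (adjusted p = 0.352). The excess in serotonin neurons was smaller rostrally than caudally by 1.07 ± 0.26 on the log2 scale (-1.07, adjusted p = 0.0699), and this difference of differences passed with the block (adjusted p = 0.00336). Without that R- array this value was -1.31 (adjusted p = 0.00328). The difference of differences also passed after quantile normalization (adjusted p = 0.0463), with the beta-actin ratio as a covariate (adjusted p = 0.0348) and without all replicate 1 arrays (adjusted p = 0.00344). In the other 20 of 25 alternatives it did not pass, with adjusted p up to 0.956. Of the other sources of RNA, the summed signal of mesenchyme markers also ran higher caudally, at 649 to 961 in R+ and 3155 to 3585 in C+, and at 1463 to 1993 in R- and 3730 to 4542 in C-. Among these, Dcn made up much of the C+ value (2345 ± 159 in C+, 116 ± 46.1 in R+, SD, n = 3 each), while Lum and Twist1 missed the filter. Dcn was higher in C+ than in C- (417 ± 111 in C-), whereas 5 genes of the same list were lower in C+. The part of these markers in the Reln result was not tested. The other Reln probe set stayed at 2 to 92 on all 12 arrays and was not tested.

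Dab1, the cytoplasmic adaptor that relays the reelin signal, was lower in rostral serotonin neurons than in rostral YFP-negative cells and in caudal serotonin neurons. It read 338, 381 and 525 in R+ and 890, 1441 and 1323 in R-, and 920, 1115 and 1079 in C+ and 900, 1082 and 843 in C-. R+ did not overlap any other population, while R-, C+ and C-, in that order of means, overlapped as neighbours. Expression was 0.347-fold in R+ relative to R- (95% interval 0.256 to 0.471, log2 difference -1.53 ± 0.21, adjusted p = 0.000125). Against C+ it was 0.400-fold (95% interval 0.295 to 0.543, -1.32 ± 0.21, adjusted p = 0.00116). C+ and C- differed by 0.14 ± 0.21 (0.813-fold to 1.498-fold, adjusted p = 0.743), and R- and C- by 0.35 ± 0.21 (adjusted p = 0.464). The serotonergic difference was therefore tested between domains, and it was lower rostrally by 1.67 ± 0.29 (-1.67, adjusted p = 0.00802). Markers of glutamate and GABA neurons were lowest in R+ too, with sums of 1100 to 1335 in R+ and 8711 to 11671 in R-. The sums were 3222 to 3853 in C+ and 11654 to 13170 in C-. Most of the gap between R+ and C+ came from Gad1, with means of 184 in R+ and 2125 in C+. Slc32a1 had means of 304 in R+ and 620 in C+. Slc17a6 (143 and 179), Gad2 (213 and 269) and Lhx1 (386 and 416) differed less. Gad1 was also the gene of this list that was not called lower in C+ than in C- (mean 2373 in C-). The part of these markers in the Dab1 result was not tested.

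Of the 4 Dab1 probe sets that passed the filter, 3 were lower in R+ than in R- when all 26061 kept probe sets were fitted, where 4.88% of probe sets were lower. The same 3 were lower in R+ than in C+, where 2.39% were. Probe set 1435577_at read 150, 104 and 176 in R+, 409, 620 and 447 in R-, 405, 386 and 360 in C+ and 495, 486 and 509 in C-. It differed by -1.72 ± 0.22 between R+ and R- (adjusted p = 0.000182), and its C+ and C- arrays did not overlap (-0.37 ± 0.22, adjusted p = 0.408). Probe set 1427308_at differed by -1.19 ± 0.24 (adjusted p = 0.00651). The dimmer 1427307_a_at, at 85 to 288 on the 12 arrays, gave -0.49 ± 0.37 (adjusted p = 0.593), and 0.13 ± 0.37 for R+ against C+ (adjusted p = 0.896). For the interaction, 1427308_at and 1435577_at gave -1.32 ± 0.34 and -1.35 ± 0.31 in that fit (adjusted p = 0.172 and 0.0895), beside 0.0229 for 1435578_s_at, the one used above. The R+ against C+ call was lost with the beta-actin ratio as a covariate (-1.04, adjusted p = 0.0999) and without the replicate 2 arrays (adjusted p = 0.067), and the interaction without the arrays of replicate 2 or 3 (0.308 and 0.225).

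**Figure D2:**
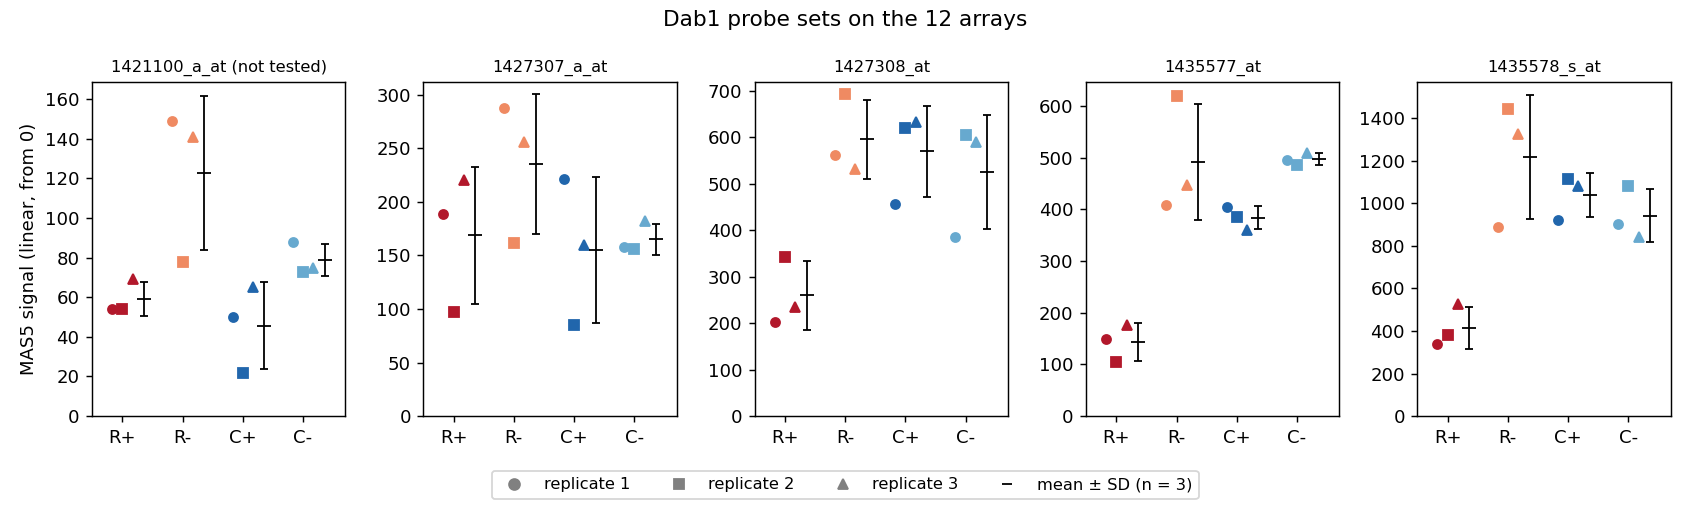
MAS5 signal (linear axis from 0, a scale of its own in each panel) of the 5 Dab1 probe sets on the 12 arrays, with the mean ± SD of 3 arrays. In 3 of them (1427308_at, 1435577_at and 1435578_s_at) all R+ arrays lie below all arrays of the other populations, while 1427307_a_at overlaps throughout. In the dim 1421100_a_at (22 to 149, not tested) R+ lies below R- and C- but overlaps C+, and C+ lies below C-.

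Neither of the reelin receptor genes passed in any comparison. Vldlr, the very low density lipoprotein receptor, read 425, 397 and 356 in R+, 350, 447 and 348 in R-, 516, 583 and 681 in C+ and 425, 437 and 405 in C-. C+ lay above the other populations without overlap, and C-, R+ and R- overlapped as neighbours. C+ against C- gave 0.47 ± 0.17 (adjusted p = 0.0936; 0.0449 with the block) and R+ against C+ gave -0.58 ± 0.17 (adjusted p = 0.0563; 0.0185 with the block). Its probe sets disagreed between R+ and C+: 1417900_a_at, 1434465_x_at and 1438258_at gave 0.66 ± 0.40, 0.32 ± 0.19 and 1.66 ± 0.63, none of which passed, and the mean of the 4 kept probe sets gave 0.52 (adjusted p = 0.247). No direction can thus be given for Vldlr.

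Lrp8, the apolipoprotein E receptor 2, read 734, 909 and 863 in R+, 1083, 1071 and 798 in R-, 840, 894 and 518 in C+ and 1099, 1014 and 1045 in C-. Its populations overlapped as neighbours in the order C-, R-, R+ and C+. C+ lay below C- by -0.52 ± 0.20 with no overlap, but did not pass (0.697-fold, 95% interval 0.518 to 0.937, adjusted p = 0.113; 0.0326 with the block). The other kept probe sets, 1440882_at and 1421459_a_at, gave -0.19 ± 0.18 and 0.23 ± 0.42 there.

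Cxcl12, the chemokine ligand, was dim everywhere. Its probe set over the limit read 78, 152 and 95 in R+, 123, 193 and 150 in R-, 52, 202 and 144 in C+ and 174, 184 and 216 in C-. All neighbours in the order C-, R-, C+ and R+ overlapped, and no comparison passed (adjusted p = 0.362 to 0.99). The 95% interval of R+ against R- ran from 0.382-fold to 1.29-fold and that of C+ against C- from 0.343-fold to 1.16-fold. Values within these intervals could not be told apart with 3 arrays per group. Single arrays moved the caudal difference of -0.67 ± 0.41 widely: it was -0.15 without C+ replicate 1, the array at 52, and -1.04 without C+ replicate 2. The other probe sets read 20 to 161 and 2 to 83 and were not tested.

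Cxcr4, the signalling receptor for Cxcl12, was present in all 4 populations and lowest in caudal YFP-negative cells. It read 998, 867 and 896 in R+, 1102, 885 and 851 in R-, 872, 762 and 781 in C+ and 578, 471 and 508 in C-. The C- arrays lay below all others, while R-, R+ and C+ overlapped as neighbours in that order. Caudal serotonin neurons exceeded C- 1.54-fold (95% interval 1.23 to 1.94, 0.63 ± 0.15, adjusted p = 0.0125), and R- exceeded C- 1.80-fold (95% interval 1.44 to 2.26, 0.85 ± 0.15, adjusted p = 0.00563). R+ and R- differed by -0.03 ± 0.15 (0.779-fold to 1.23-fold, adjusted p = 0.942) and R+ and C+ by 0.19 ± 0.15 (0.910-fold to 1.43-fold, adjusted p = 0.498). The difference of differences was -0.66 ± 0.22 (adjusted p = 0.304; 0.0431 with the block). Without the C- array of replicate 2, the lowest, C+ against C- missed the threshold (0.56, adjusted p = 0.0513), as it did without the arrays of replicate 2 or 3 (0.151 and 0.194). R- against C- missed it with the beta-actin covariate (0.69, adjusted p = 0.108) and without the arrays of replicate 2 or 3 (0.149 and 0.207). Endothelial markers, whose cells also carry Cxcr4, summed to 630 to 855 in C+ and 1091 to 1589 in C-, and to 681 to 750 in R+ and 856 to 988 in R-. Pecam1 and Tek missed the filter, and the part of these markers was not tested.

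Cdk5, the neuronal cyclin-dependent kinase, passed in no comparison and varied widely between replicates. It read 2189, 1353 and 1822 in R+, 1968, 944 and 1320 in R-, 1872, 938 and 680 in C+ and 1372, 895 and 1022 in C-. The replicate 1 array was the highest of its group in all 4 populations, on average 0.50 above the group mean on the log2 scale, and all neighbours in the order R+, R-, C+ and C- overlapped. R+ against C+ gave 0.72 ± 0.33 (adjusted p = 0.208; 0.0124 with the block). Without the C+ array of replicate 1 it was 1.13 (adjusted p = 0.0176), and with the beta-actin ratio as a covariate the sign turned (-0.22, adjusted p = 0.841). Probe set 1422590_at read 439, 273 and 649 in R+ and 265, 226 and 260 in R- (0.75 ± 0.31, adjusted p = 0.198). For R+ against C+ this probe set gave 0.198 ± 0.305 (adjusted p = 0.788).

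Cdk5r1, which encodes the activator p35, likewise passed in no comparison. Its probe set read 11524, 9124 and 8049 in R+, 10606, 7056 and 6702 in R-, 10207, 8152 and 7618 in C+ and 10781, 7819 and 8040 in C-. Replicate 1 was again highest in all 4 groups, by 0.31 over the group mean, and all 4 populations overlapped. The closest to a difference was R+ against R-, at 0.25 ± 0.19 (0.894-fold to 1.59-fold, adjusted p = 0.518; 0.0423 with the block). Probe sets 1421124_at and 1433451_at gave 0.62 ± 0.55 and 0.38 ± 0.35 for that pair.

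Pafah1b1, the dynein regulator mutated in lissencephaly, read 4280, 4523 and 3295 in R+, 4073, 3238 and 2945 in R-, 4648, 4618 and 5030 in C+ and 3708, 3268 and 3468 in C-. C+ was above all other arrays, and R+, C- and R- overlapped as neighbours. C+ against C- was 0.45 ± 0.15 (1.37-fold, 95% interval 1.10 to 1.70, adjusted p = 0.0587). It passed in 6 of 26 alternatives, among them the block (adjusted p = 0.0132) and leaving out the replicate 1 arrays (0.52, adjusted p = 0.0375). The others were the fit of these groups alone (0.0373), the beta-actin covariate (0.0425), and leaving out R+ replicate 3 (0.0448) or R- replicate 1 (0.0333). Probe set 1417086_at gave 0.40 ± 0.16 for this pair, with 2299, 2576 and 3050 in C+ and 1770, 2165 and 2063 in C-, and 1460199_a_at gave -0.001 ± 0.14.

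Astn1, a neuronal membrane protein of neuron-glia adhesion, read 3846, 4628 and 3914 in R+ and 2666, 3792 and 3009 in R-, and 3534, 4387 and 5533 in C+ and 3004, 3500 and 3268 in C-. All R+ arrays were above all R- arrays and all C+ arrays above all C- arrays, in a gene for which C+ and R+ overlapped and so did C- and R-. The differences were 0.40 ± 0.17 rostrally (adjusted p = 0.169) and 0.44 ± 0.17 caudally (adjusted p = 0.116). Rostrally it passed in 2 alternatives, the block (adjusted p = 0.0305) and the beta-actin covariate (0.0458). Caudally it passed in 3, the block (adjusted p = 0.0168) and leaving out C+ replicate 1 (0.0258) or all replicate 1 arrays (0.0341). The rostral minus the caudal difference was -0.04 ± 0.24 (0.681-fold to 1.39-fold as a ratio of folds, adjusted p = 0.991).

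**Figure D3:**
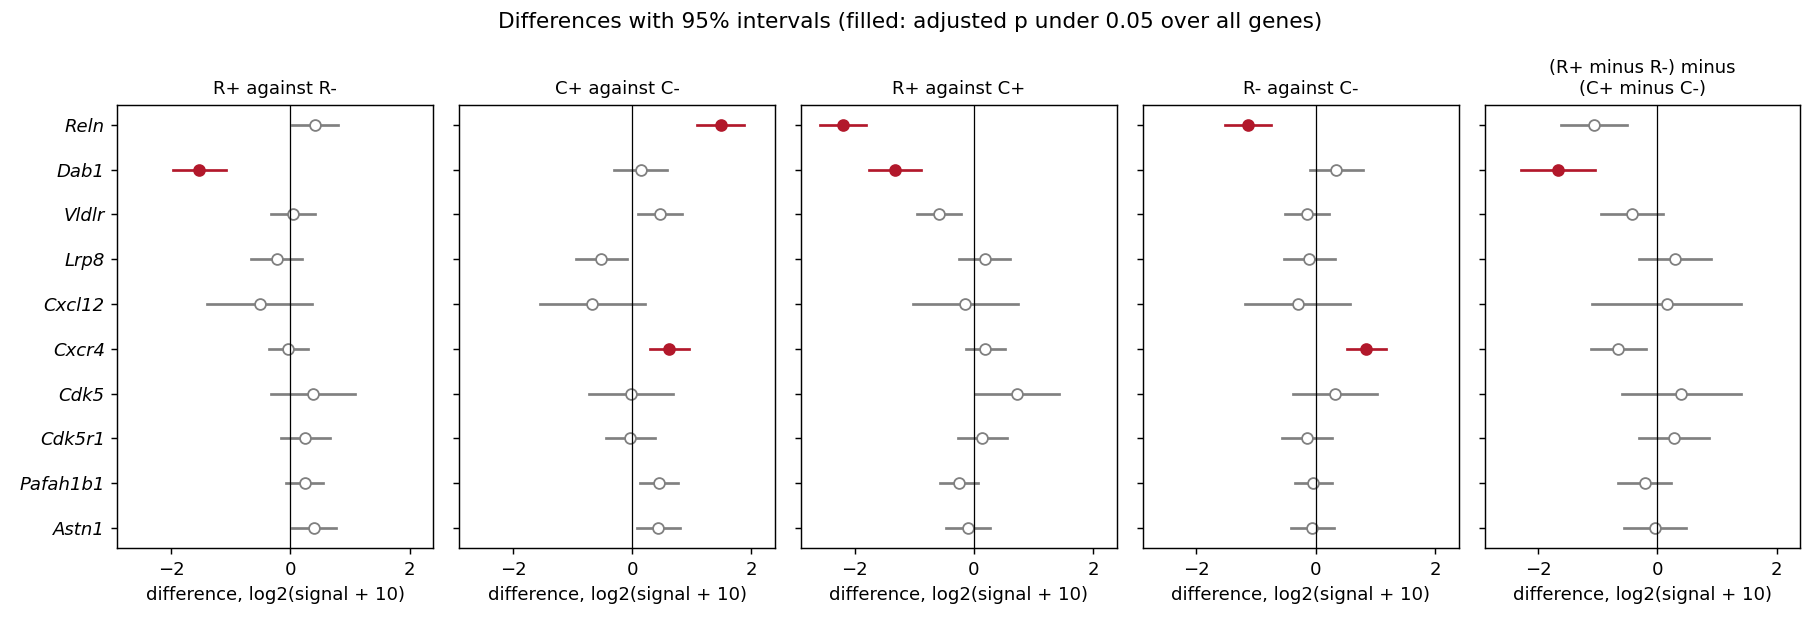
Difference of each gene on the log2(signal + 10) scale with its 95% interval in the 5 comparisons, the last of them the difference of differences. Filled points passed at an adjusted p under 0.05 over all genes: Dab1 in R+ against R-, Reln and Cxcr4 in both the caudal pair and the pair of YFP-negative populations, Reln and Dab1 in R+ against C+, and Dab1 in the last panel.

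Other genes of these pathways were taken as 4 lists of 108 genes, 96 of them measured. Each named difference was refitted under 26 alternatives, and the number that ended its call is given. The block raised the share of all genes that passed, as given above, so counts with it are to be read beside that share. Of 31 genes downstream of reelin or acting on its receptors, 1 was higher and 1 lower in R+ than in R-, 1 was higher and 0 lower in C+ than in C-, and 0 were higher and 1 lower in R+ than in C+. These were the integrin gene Itga3 (0.87 ± 0.19, adjusted p = 0.00572), Mylip, a ubiquitin ligase that degrades both receptors (-0.94 ± 0.26, adjusted p = 0.0274), the small GTPase Rap1b (0.48 ± 0.15, adjusted p = 0.0495) and Cul5, a cullin of the ligase that degrades phosphorylated Dab1 (-0.65 ± 0.19, adjusted p = 0.0472). Their calls were lost with the sign kept in 3, 8, 16 and 19 of the alternatives in this order. Cul5 lost its call in 1 more, the mean of its probe sets, where its sign turned (0.98, adjusted p = 0.209). The block gave 3 higher and 1 lower in each of the first 2 comparisons and 2 and 2 in the third one. The list medians of 0.08, -0.02 and -0.07 lay near those of all genes given above.

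Among 20 chemokine genes, 2 were higher and 3 lower in R+ than in R-, and again 2 and 3 in C+ against C-. Ackr3, the receptor that removes Cxcl12, read 178 to 261 in R+ and 991 to 1406 in R- (-2.54 ± 0.21, adjusted p = 8.95e-07), and 513 to 716 in C+ and 1413 to 2022 in C- (-1.54 ± 0.21, adjusted p = 0.000112). It was also lower in R+ than in C+ (-1.48 ± 0.21, adjusted p = 0.000486). This call was lost in 2 alternatives (adjusted p up to 0.0641), among them the beta-actin covariate (adjusted p = 0.056). Rgs4 and Rgs16, which shorten G protein signals, were lower in R+ (-2.80 ± 0.49 and -2.16 ± 0.35) and in C+ (-2.45 ± 0.49 and -3.03 ± 0.35). The inhibitory G protein gene Gnai1 was higher in both, by 1.08 ± 0.21 and 1.31 ± 0.21, with 3418 to 4813 in R+ and 1699 to 2256 in R-, and so was the kinase Jak2 (0.62 ± 0.17 and 0.70 ± 0.17). The calls of Ackr3, Rgs4 and Rgs16 within each domain were kept throughout, while Gnai1 lost its call in 2 alternatives rostrally and 0 caudally, and Jak2 in 7 and 4. R+ against C+ had 0 higher and 2 lower, Ackr3 and Rac1 (-0.57 ± 0.14, adjusted p = 0.0244). The Rac1 call was lost in 12 alternatives, with values down in size to -0.185 (adjusted p up to 0.528). The block gave 4 and 4 in C+ against C- and 2 and 5 in R+ against C+. The list medians were -0.02, 0.10 and -0.17.

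Of 21 regulators and substrates of Cdk5, 2 were higher and 2 lower in R+ than in R-, 1 and 2 in C+ against C-, and 1 and 0 in R+ against C+. Cdk5r2, the second activator of Cdk5 (p39), was 2213 ± 574 in R+ and 1009 ± 384 in R- (SD, n = 3 each, 1.17 ± 0.24, adjusted p = 0.0042) and exceeded C+ by 0.89 ± 0.24 (adjusted p = 0.0371). The synaptic vesicle gene Syn1 was higher in R+ (0.78 ± 0.19) and C+ (0.83 ± 0.19). The transcription factor gene Foxp2 (-2.50 ± 0.23 and -1.998 ± 0.23) and the endocytosis gene Amph (-0.57 ± 0.17 and -0.56 ± 0.17) were lower in both. Foxp2 kept both calls throughout, whereas Amph lost its call in 13 alternatives rostrally and 14 caudally. Syn1 lost its call in 4 and 1, and Cdk5r2 in 1 against R- and 11 against C+. With the block 5 and 2, 4 and 2, and 4 and 2 passed in the 3 comparisons. The list medians were 0.13, -0.05 and 0.05.

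Among 25 genes of the Lis1, dynein and tubulin group, 1 was higher and 1 lower in each of R+ against R-, C+ against C- and R+ against C+. The dynein light chain gene Dynlt3 was higher in R+ (0.95 ± 0.25) and C+ (1.06 ± 0.25). Nde1, a Lis1 partner of dividing progenitors, was lower in both (-2.03 ± 0.38 and -1.69 ± 0.38), with 45 to 165 in R+ and 355 to 566 in R-, and 76 to 141 in C+ and 339 to 484 in C-. Dynlt3 lost its call in 6 alternatives rostrally and 4 caudally, and Nde1 in 1 and 2. Between R+ and C+ Dynlrb1 was higher (0.53 ± 0.15) and Clip1 lower (-0.52 ± 0.13). Dynlrb1 lost its call in 15 alternatives, at the least 0.149, and Clip1 in 10, at the least -0.284. The block gave 4 and 2 in R+ against R- and 6 and 2 in R+ against C+. Dcx, the microtubule protein doublecortin, was the 1 gene of the 4 lists that passed in R- against C- (-0.55 ± 0.10, adjusted p = 0.00851), and none passed in the difference of differences. Its call was lost in 6 alternatives, and the mean of its probe sets gave -0.169 (adjusted p = 0.688). With the block 0, 2, 4 and 3 genes of the 4 lists passed in R- against C-. The list medians were 0.14, -0.02 and 0.07. The progenitor markers given above were lower in the same sorts in which Nde1, Ackr3, Rgs4, Rgs16 and Foxp2 were lower, and their part was not tested.

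**Figure D4:**
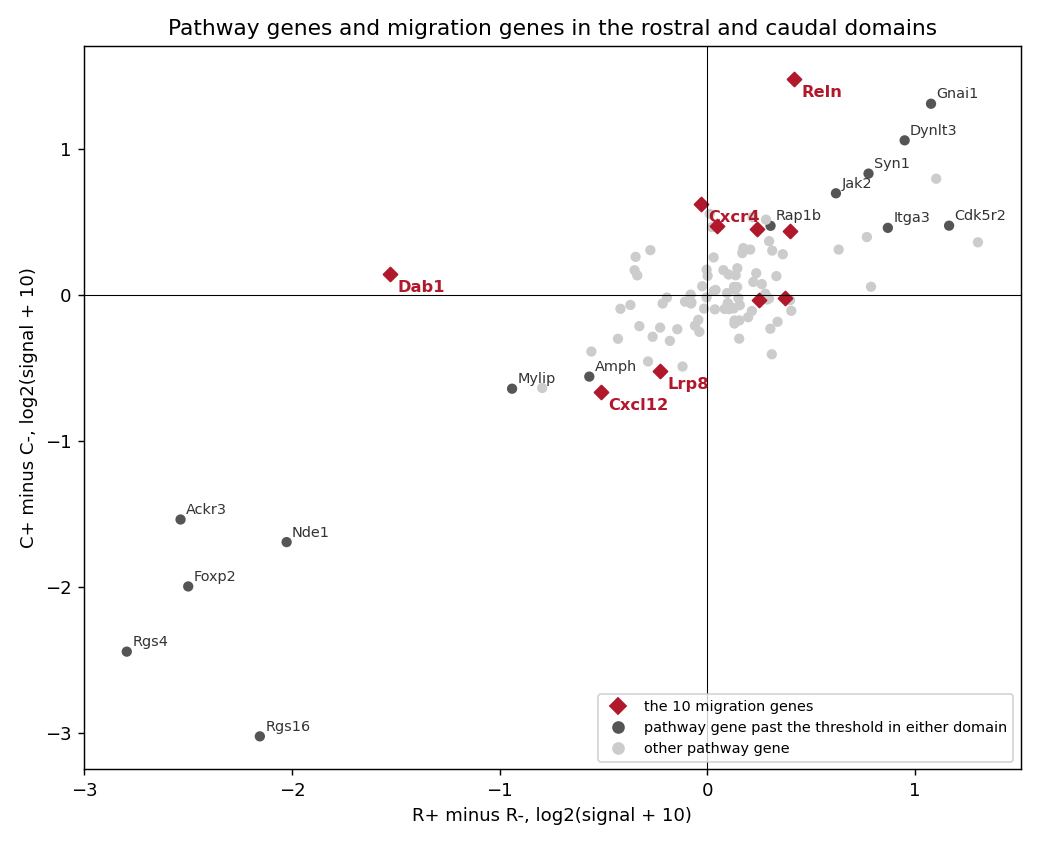
Difference R+ minus R- (horizontal) against C+ minus C- (vertical), both on the log2(signal + 10) scale, for the 96 measured pathway genes (circles) and the 10 migration genes (diamonds). Ackr3, Rgs4, Rgs16, Foxp2 and Nde1 lie below -1.5 on both axes, Reln lies highest on the vertical axis at 1.48, and Dab1 lies at -1.53 on the horizontal axis near 0 on the vertical one.

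Likeness of pattern was measured as the root mean square distance between genes' log2 values over the 12 arrays, each centred on its mean. For Reln the closest were Pfkp (0.345), Ret (0.383) and Zfp667 (0.402), where the median over all genes was 1.07. Pfkp read 1571 to 1676 in C+ and 611 to 656 in C-, and 517 to 707 in R+ and 231 to 370 in R-. Palld (0.162), Pon2 (0.26) and Phldb2 (0.265) were closest to Dab1 (median 0.706). Palld, which encodes the actin-binding protein palladin, read 175 to 328 in R+ and 729 to 1033 in R-, and 622 to 816 in C+ and 581 to 747 in C-. For Cxcr4 these were Thoc3 (0.148), Mageh1 (0.161) and Gm8273 (0.163, median 0.533), and for Cxcl12 Srl (0.196), Pigb (0.223) and Spidr (0.241, median 0.619). The arrays share a sort, a scaling and the deviation of replicate 1, which enter these distances.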

How the data were processed

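RNA of sorted cells was hybridized to 12 Affymetrix Mouse 430 2.0 arrays. The authors deposited MAS5 signal intensity on a linear scale, per the submitters' processing notes; the sources used here do not give its version or settings. The trimmed mean, leaving out 2% at each end, was 500 on all arrays, which shows a common scaling. The labels call the replicates biological but name no litters. The p-values thus rest on the spread among these arrays alone, which may be technical.

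Of 45101 probe sets, 64 controls were left out and 34945 had one gene symbol in the probe table. A probe set was kept if 3 or more arrays exceeded the overall median signal of 107 (26061 passed). For each gene the brightest of these by mean log2 signal was used, with the _x_at kind taken only in the absence of another. Differences were fitted on log2(signal + 10) with limma 3.58.1 in R 4.3.3, with 1 mean per group over all 12 arrays, eBayes with a trend, two-sided tests and Benjamini-Hochberg adjustment at 0.05 over 12845 genes in each of 5 comparisons. This scale understates fold changes of dim genes. A like fit over all 26061 kept probe sets tested the members' other probe sets. The number of arrays limits the precision. The procedure was tested on simulated data.

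The members, the gene lists and the tests were chosen with earlier results of these data known. Named list genes were, per list, comparison and direction, up to 3 with the largest difference among those past the threshold. For pairing, arrays with the same replicate number were compared in their deviations from group means. They correlated at 0.118 to 0.52 over 18 pairs, all above 0.1. Arrays of different numbers correlated at -0.398 to 0.273 over 36 pairs, 5 of them above 0.1. The number was therefore treated as pairing the arrays and used as a block in an alternative, while the main fit had no block. Other alternatives were another offset, filter, scaling, probe set rule, moderation, sample set or RNA quality covariate, and leaving out arrays.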

Additional observations from a re-analysis of the deposited data

Results flagged for a closer look

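Dab1 was singled out because its difference between serotonin neurons and their neighbours was not the same in the 2 domains by a test of that difference. The rostral difference (R+ minus R-) was -1.53 ± 0.21 and the caudal one (C+ minus C-) 0.14 ± 0.21 on the log2(signal + 10) scale (SE, n = 3 arrays per group). They differed by -1.67 ± 0.29 (limma, adjusted p = 0.00802 over 12845 genes). This call was lost without the arrays of replicate 2 or of replicate 3 (adjusted p = 0.308 and 0.225). In the fit of all kept probe sets, 1427307_a_at, 1427308_at and 1435577_at did not pass for it. All 3 R+ arrays (338 to 525) lay below all 3 R- arrays (890 to 1441), whereas C+ (920 to 1115) and C- (843 to 1082) overlapped.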

How the results depend on the processing

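Of the 8 member calls 3 kept their direction and call under every alternative, namely Dab1 in R+ against R- and Reln in the caudal pair and between R+ and C+. The other 5 kept their direction and lost the call in at least 1 alternative, as given with each gene. With the replicate block 2684, 2929, 2795, 1310 and 340 genes passed in the 5 comparisons in the order of the text, against 1567, 1683, 940, 363 and 150 without it, and 4, 6, 4, 2 and 3 of the 10 members against 1, 2, 2, 2 and 1. The block ended no member's call. With the beta-actin ratio as a covariate 216 genes passed in R+ against C+, 216 in R- against C-, and of the members 2 in R+ against R-, 1 in R+ against C+, 0 in R- against C- and 2 in the difference of differences. In R+ against C+ scaling arrays to one median gave 507 genes, eBayes without trend 609 and a fit of these groups alone 605; quantile normalization gave 2 members in the difference of differences. Scaling to one median gave 127 higher and 118 lower genes in R- against C-, beside 135 and 228 in the scaling used, 788 and 708 in C+ against C-, beside 734 and 949, and 38 and 82 in the difference of differences, beside 63 and 87. The median of all genes was then 0.051, 0.055 and -0.103 in these comparisons, beside -0.037, -0.039 and -0.011.

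Leaving out 1 array or the 4 arrays of 1 replicate number gave 641 to 1771, 668 to 1872, 146 to 1813, 79 to 439 and 27 to 219 genes. The lowest count came each time without replicate 3. Without replicate 1, which left the same number of arrays, 1608, 1836, 1813, 362 and 219 genes passed. Over all these leave-outs, members numbered 1 to 4 in R+ against C+, 1 to 4 in the caudal pair, and 0 to 2 in R- against C- and the difference of differences. In R+ against C+ leaving out any of the C+ arrays or R+ replicate 1 or 3 moved the count of genes by over 1.5 times, to 1744, 385 and 402 without C+ replicate 1, 2 and 3 and to 503 and 391 without R+ replicate 1 and 3. R- against C- gave 198, 238 and 220 without R- replicate 3, C- replicate 2 and C- replicate 3.

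Signs turned only for members that did not pass in either setting, and for Cul5 (0.98 in R+ against C+ by the mean of probe sets). The mean of probe sets gave -0.068 for Dab1, -0.17 for Vldlr and 0.10 for Cdk5 in C+ against C-, 0.52 for Vldlr and -0.17 for Lrp8 in R+ against C+, 0.19 for Vldlr and -0.008 for Cdk5 in R- against C-, and 0.32 for Vldlr and -0.029 for Lrp8 in the difference of differences. One median gave 0.072 for Cdk5 and 0.064 for Cdk5r1 in C+ against C-, and 0.053 for Pafah1b1 and 0.032 for Astn1 in R- against C-. The beta-actin covariate gave 0.008 for Cdk5 in C+ against C-, 0.78 for Cxcl12, -0.002 for Cxcr4, -0.22 for Cdk5, -0.35 for Cdk5r1 and 0.29 for Astn1 in R+ against C+, 0.47 for Cxcl12, -0.46 for Cdk5 and 0.27 for Astn1 in R- against C-, and 0.025 for Astn1 in the last comparison. Leaving arrays out gave -0.068 to 0.16 for Vldlr and -0.10 to 0.081 for Cxcr4 in R+ against R-, and -0.43 to 0.30 for Cdk5 and -0.16 to 0.12 for Cdk5r1 in C+ against C-. In R+ against C+ it gave -0.084 to 0.38 for Lrp8, -0.66 to 0.23 for Cxcl12, -0.003 to 0.26 for Cdk5r1 and -0.26 to 0.10 for Astn1. In R- against C- it gave -0.20 to 0.033 for Lrp8, -0.35 to 0.003 for Cdk5r1, -0.17 to 0.063 for Pafah1b1 and -0.20 to 0.055 for Astn1. In the difference of differences it gave -0.11 to 0.53 for Lrp8, -0.36 to 0.53 for Cxcl12 and -0.21 to 0.13 for Astn1. Of 31 named pathway differences 9 kept their call under all alternatives and 22 lost it under at least 1. The causes were not tested.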
